A study of Homo sapiens with 12 samples.

Results

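The Wnt and beta-catenin pathway genes were the entries of the count table whose symbol is WNT or FZD followed by a digit, plus the other symbols of a list of 33. They numbered 55 of the 19225 entries of the table: 19 WNT ligands, 13 receptors (10 FZD genes, LRP5, LRP6 and LGR4), PORCN, 3 Dishevelled genes, 5 destruction complex genes, 6 genes for beta-catenin and its nuclear partners, 6 feedback targets and 2 secreted inhibitors. They were followed in HN6 and HN30, established human oral squamous cell carcinoma (OSCC) cell lines, each transfected with siFAT1-1, siFAT1-2 or a non-targeting scrambled siRNA (NC) and harvested after 24 h. Each of the 6 conditions had 2 repeats, which the labels mark as times, giving 4 NC libraries and 8 FAT1 knockdown (KD) libraries. No wild-type or rescue group was included, all cells had been through a transfection, and each line stands for 1 tumour. Libraries held between 26430049 and 47639010 counts, and levels are given as CPM, counts scaled to the library total with TMM factors.

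In canonical Wnt signalling, a palmitoylated WNT ligand binds a Frizzled receptor (FZD) and the coreceptor LRP5 or LRP6, and Dishevelled then halts the destruction complex of APC, AXIN, GSK3 and casein kinase 1 alpha, which otherwise marks beta-catenin for degradation. Beta-catenin (CTNNB1) that escapes binds TCF/LEF factors in the nucleus and turns on genes that include its own brakes, AXIN2, NKD1, RNF43 and ZNRF3. A second pool of beta-catenin sits with cadherins at the cell membrane, and FAT1, an atypical cadherin, is reported to bind beta-catenin, which is the question that these genes bear on. The pathway acts on beta-catenin protein, whereas the libraries measured mRNA.

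Promoters are shown for 3 genes, chosen after their values were seen because they differed clearly between the siRNAs: DKK1, a secreted antagonist that binds LRP5 and LRP6, and the ligand genes WNT3 and WNT4. The sequences are the RefSeq windows of GRCh38.p14 from 250 bases before to 50 bases after an annotated start. Capitals mark the 4 core words that open with CTTTG and go on with A or T at both of the next positions, forms of the TCF/LEF motif, searched on both strands. DKK1 lies on the plus strand at chr10:52314031-52314330, WNT3 on the minus strand at chr17:46818643-46818942 and WNT4 on the minus strand at chr1:22143048-22143347. The starts of WNT3 and WNT4 lie inside longer gene models of the annotation used for levels.
DKK1: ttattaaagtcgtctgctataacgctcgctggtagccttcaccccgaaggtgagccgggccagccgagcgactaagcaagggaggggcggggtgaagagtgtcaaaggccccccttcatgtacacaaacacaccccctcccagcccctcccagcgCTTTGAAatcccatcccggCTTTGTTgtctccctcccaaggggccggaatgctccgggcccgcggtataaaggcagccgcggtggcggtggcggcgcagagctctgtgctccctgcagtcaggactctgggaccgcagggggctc
WNT3: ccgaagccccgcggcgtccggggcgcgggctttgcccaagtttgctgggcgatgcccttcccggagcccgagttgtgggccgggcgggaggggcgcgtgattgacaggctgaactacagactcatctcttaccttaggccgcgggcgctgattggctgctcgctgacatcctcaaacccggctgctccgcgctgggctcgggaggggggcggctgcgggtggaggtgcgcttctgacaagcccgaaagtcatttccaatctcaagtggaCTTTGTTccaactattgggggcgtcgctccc
WNT4: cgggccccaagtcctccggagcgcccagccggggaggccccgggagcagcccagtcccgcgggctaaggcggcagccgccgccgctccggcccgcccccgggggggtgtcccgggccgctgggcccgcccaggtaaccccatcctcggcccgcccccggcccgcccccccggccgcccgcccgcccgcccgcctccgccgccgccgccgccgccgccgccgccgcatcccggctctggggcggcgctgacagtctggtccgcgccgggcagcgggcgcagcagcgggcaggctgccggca
The DKK1 window held 2 words, at positions -95 and -76 from the start, the WNT3 window 1 at position 19, and the WNT4 window 0. A word was present in 4 of the 51 windows that the table holds for 41 of the genes (7.8%), those of DKK1, WNT3, TCF7 and TCF7L2 included, and in 13.8% of the 35116 windows of all genes. A match is only a match of letters, and the GC content of the 3 windows differed, from 63.7% in DKK1 to 85.7% in WNT4 (median of all windows 58.7%).

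FAT1 itself was checked first. In HN6 its level was 56.8 and 66.7 CPM in NC, 7.61 and 13.5 CPM with siFAT1-1 and 13.2 and 21.4 CPM with siFAT1-2. In HN30, where the NC level was lower, it was 13.6 and 14.7 CPM in NC, 4.86 and 6.26 CPM with siFAT1-1 and 10.8 and 7.74 CPM with siFAT1-2. Every KD library thus lay below both NC libraries of its line, and the log2 fold change of KD against NC was -1.59 ± 0.31 (SE; edgeR adjusted p = 0.0404). The adjusted p of FAT1 rose above 0.05 when any library other than HN30 siFAT1-2 repeat 1 was left out, to at most 0.124 without HN6 NC repeat 1, and it was 0.0757 with the time as a block (log2 fold change -1.61) and 0.331 with no cell line term. By siRNA, FAT1 had a log2 fold change of -2.0 ± 0.32 for siFAT1-1 and -1.27 ± 0.31 for siFAT1-2 (adjusted p = 0.00656 and 0.0236), and they differed by -0.73 ± 0.31 (adjusted p = 0.119). The call with siFAT1-2 was lost without HN6 siFAT1-2 repeat 1 (adjusted p = 0.0716). Within HN6 the log2 fold change of FAT1 was -2.11 ± 0.40 and within HN30 -0.94 ± 0.35 (adjusted p = 0.814 and 0.492).

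Squamous markers were present in both lines. KRT5, KRT6A, KRT17, TP63, SFN, CDH1 and EPCAM were detected in all 12 libraries, while KRT14 was at 0 in 5 of the 6 HN30 libraries. PTPRC, the defining leukocyte gene, was at 0 in 11 libraries, and COL1A2, COL3A1, DCN and PDGFRA of fibroblasts stayed at or below 4.43 CPM, although COL1A1 ranged from 11.1 to 146 CPM, LUM reached 13.7 CPM and PDGFRB 9.37 CPM. Repeats differed by more than counting noise in every condition (chi-square over its degrees of freedom, 13 to 211). The HN6 NC repeats agreed least, with a Pearson's r across genes of 0.943 on the log2 scale against 0.995 for HN30 siFAT1-1, and results are also given without each of them where they change.

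The level of each gene in each library set what could be tested. CTNNB1 was the most abundant member of the intracellular pathway, with a mean of 118 CPM per kb of transcript in HN6 and 146 CPM per kb in HN30. DKK1 reached 169 CPM per kb in HN6 and 74.2 CPM per kb in HN30. Of the ligands in NC, WNT7B and WNT10A had the highest means in both lines, at 23.4 ± 4.04 and 11 ± 2.70 CPM per kb in HN6 (SD, n = 2) and at 12.5 ± 2.83 and 18.2 ± 8.86 CPM per kb in HN30, where their order does not hold beyond the spread. The order varied with the siRNA, and in HN30 with siFAT1-2 WNT9A, at 9.46 ± 3.81 CPM per kb, stood above WNT7B, at 6.6 ± 2.08 CPM per kb, with overlapping repeats. Among the receptors LRP5 stood highest, at 30.6 CPM per kb in HN6 and 58.1 CPM per kb in HN30. WNT8A and WNT9B had no count in any library, which allows at most 0.0143 CPM in HN6 and 0.0148 CPM in HN30 (3 counts over the 6 libraries of a line, for counting error only). WNT2 had 2 counts in all and WNT3A had 4.

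The feedback targets were split between genes at moderate levels and genes near 0. AXIN2, the most widely used readout of canonical signalling, had 4 counts in the 12 libraries together, 2 in HN6 siFAT1-1 repeat 2 and 2 in HN30 siFAT1-2 repeat 1, and LEF1 had 11, with a highest level of 0.169 CPM. The counts of LEF1 were 2 and 6 in HN6 NC, 0 and 2 in HN30 NC and 1 in HN30 siFAT1-1 repeat 1, and the other 7 KD libraries had none. NKD1 was found in HN30 alone, with 90 counts, and NKD2 in HN6 alone, with 79 counts. ZNRF3 and RNF43, ubiquitin ligases that remove Frizzled from the membrane, lay between 18.2 and 38.7 CPM and between 1.80 and 29.5 CPM. AXIN2 had no count in NC, so a fall of it after knockdown could not have been detected at this depth, and LEF1 had too few counts to be tested. A large rise of AXIN2 would not have been hidden in this way, and its highest level in a KD library was 0.0637 CPM, from 2 counts. AXIN2 itself was not tested. In the contrasts over all 12 libraries the filter on low counts kept 46 of the 55 genes for the test. The test of whether the KD effect differed between the lines kept 48, with WNT8B and WNT16 added. The 9 genes outside the 46 were AXIN2, LEF1, WNT1, WNT2, WNT3A, WNT8A, WNT8B, WNT9B and WNT16.

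**Figure D1:**
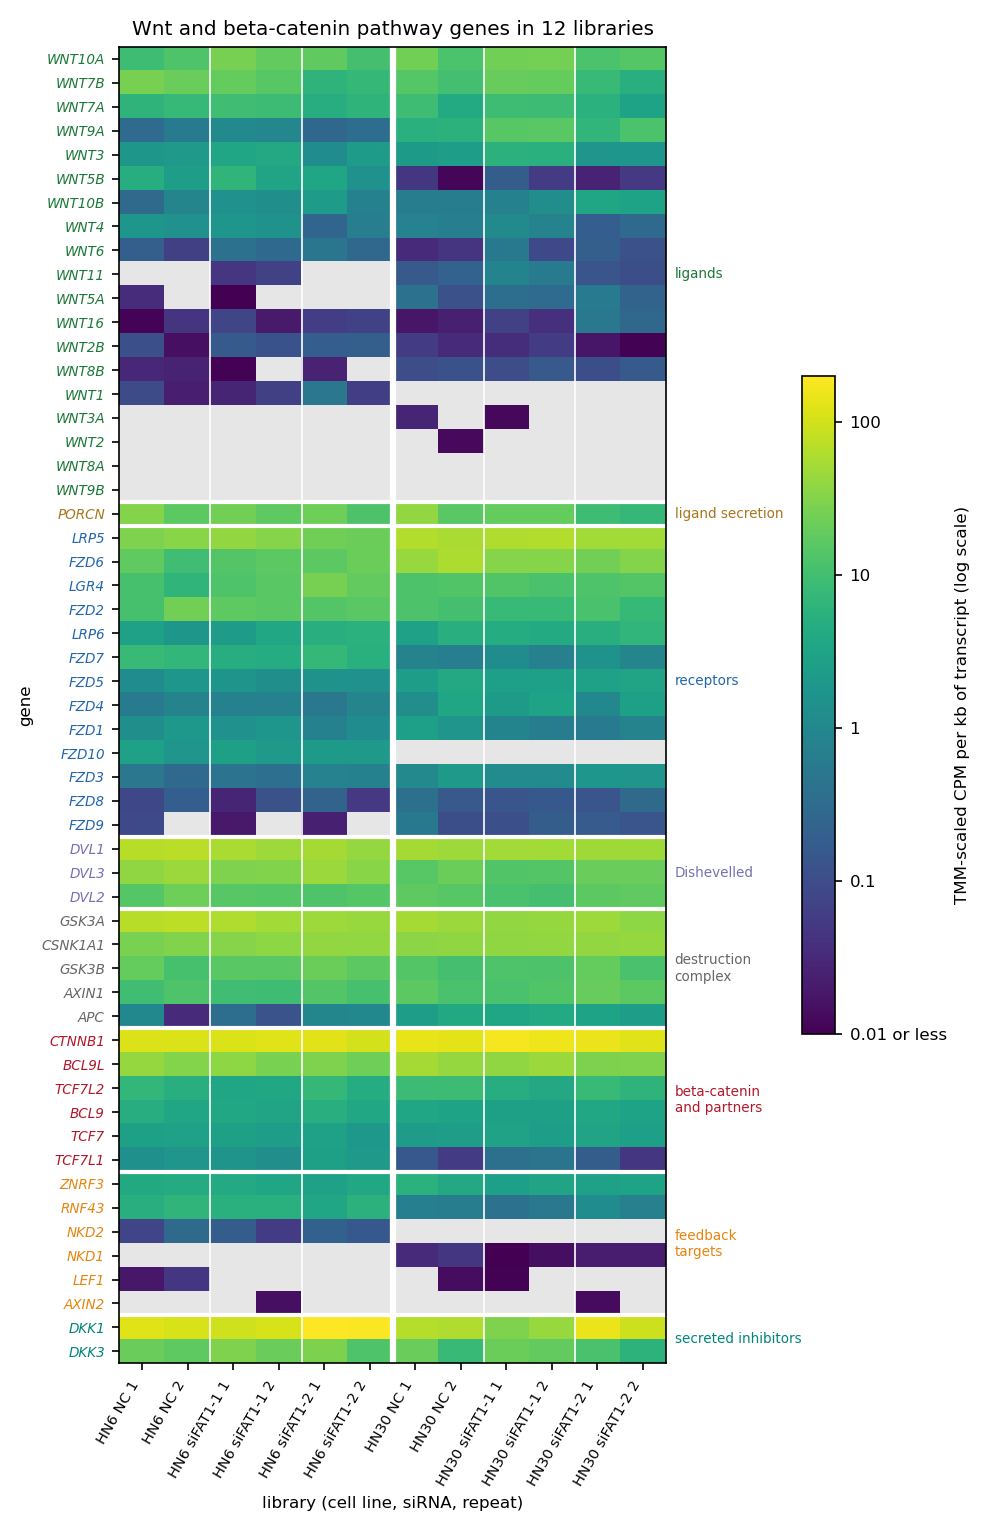
Level of each of the 55 genes (rows, grouped by role) in each of the 12 libraries (columns), as TMM-scaled CPM per kb of transcript on a logarithmic colour scale, with grey for a library without a count. CTNNB1 and DKK1 are bright throughout, AXIN2, LEF1, WNT2, WNT3A, WNT8A and WNT9B are grey or dark, and FZD10, NKD1 and NKD2 are grey in all libraries of 1 line.

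FAT1 knockdown with both siRNAs in 1 contrast gave few calls among these genes. The thresholds of a differentially expressed gene (DEG) were those of the study, which used limma-voom, while the P here is that of edgeR. A DEG had a P under 0.05 before adjustment together with a log2 fold change beyond 1 in either direction. Counts that use the Benjamini-Hochberg adjusted p over all genes, with 0.05 as its limit and no limit on the fold change, stand beside those of DEGs. In KD against NC 3 of the 46 tested genes were DEGs, 2 higher and 1 lower, where 3.07% of all 13887 genes tested were. No member had an adjusted p under 0.05 in edgeR (8 of 46 had an unadjusted P under 0.05, where 14.5% of all genes did), against 0.547% of all genes, and the count was 0 with limma-voom and 3 with the DESeq2 Wald test. The median log2 fold change of the members was 0.00 and that of all genes 0.02. In bulk libraries, fewer cells that express a gene and less RNA per cell cannot be told apart.

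Both DEGs that were higher are ligands. WNT10B, a canonical ligand, stood at 0.683 and 2.03 CPM in HN6 NC and between 1.72 and 5.18 CPM in the 4 HN6 KD libraries, and at 1.44 and 1.44 CPM in HN30 NC and between 1.76 and 7.44 CPM in the 4 HN30 KD libraries. The HN6 groups overlapped by 1 library and those of HN30 did not. Its log2 fold change was 1.51 ± 0.47 (adjusted p = 0.166). WNT6 was rare, at 0.0566 to 0.342 CPM in NC and 0.154 to 0.935 CPM in KD, yet all 8 KD libraries lay above both NC libraries of their line, and its log2 fold change was 1.91 ± 0.59 (adjusted p = 0.166). WNT6 rests on 160 counts in all 12 libraries and passed the filter on low counts through KD libraries, with at most 10 counts in an NC library, so its value is a description. The other gene with this order was CSNK1A1, casein kinase 1 alpha, with a log2 fold change of 0.24 ± 0.12 (adjusted p = 0.379). No member lay below both NC libraries in all 8 KD libraries, and 5.44% of all genes lay on one side in this way. Against the NC library of the same line and time alone, WNT6 and CSNK1A1 were above in all 8 pairs and GSK3A below, where 9.39% of all genes lay on one side.

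The DEG that was lower is FZD1, a Frizzled receptor. In HN30 its level was 18.8 and 12.3 CPM in NC, 5.99 and 4.50 CPM with siFAT1-1 and 4.30 and 5.74 CPM with siFAT1-2. In HN6 it was 9.39 and 13.6 CPM in NC, 10.4 and 12.7 CPM with siFAT1-1 and 5.40 and 8.51 CPM with siFAT1-2. The groups were apart in HN30 and overlapped in HN6. The log2 fold change over both lines was -1.0 ± 0.30 (adjusted p = 0.155). This value was just past the limit of 1 and ranged from -1.25 without HN6 NC repeat 1 to -0.70 without HN30 NC repeat 1. FZD1 was no DEG without HN6 siFAT1-2 repeat 1 or without any 1 of the 6 HN30 libraries, nor with the time as a block (-0.98, adjusted p = 0.208), limma-voom (-0.94), DESeq2 size factors (-0.98), the DESeq2 Wald test (-0.98) or no cell line term (-0.91).

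CTNNB1 and the feedback targets showed no change that passed the test in KD against NC. CTNNB1 stood at 428 and 435 CPM in HN6 NC, 412 and 454 CPM with siFAT1-1 and 478 and 378 CPM with siFAT1-2. In HN30 it stood at 504 and 496 CPM in NC, 636 and 577 CPM with siFAT1-1 and 556 and 448 CPM with siFAT1-2. The groups overlapped in both lines apart from siFAT1-1 in HN30, and the log2 fold change of KD against NC was 0.07 ± 0.13 (adjusted p = 0.830). ZNRF3 had a log2 fold change of -0.47 ± 0.17 (adjusted p = 0.237, and -0.30 without HN30 NC repeat 1), with 38.7 and 26.7 CPM in HN30 NC against 18.2 to 22.0 CPM in HN30 KD, and 28.0 and 30.0 CPM in HN6 NC against 19.9 to 29.1 CPM in HN6 KD. The groups were apart in HN30 and overlapped in HN6. RNF43 had a log2 fold change of -0.06 ± 0.28 (adjusted p = 0.939). NKD1, an inhibitor of Dishevelled, stayed under 1 CPM, and in HN30 its level was 0.566 and 0.807 CPM in NC and 0.150 to 0.379 CPM in KD. In the fit over both lines NKD1 had a log2 fold change of -1.18 ± 0.61 (adjusted p = 0.422). NKD2, its relative, gave -0.33 ± 0.76 (adjusted p = 0.873).

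None of the destruction complex and Dishevelled genes was a DEG in KD against NC. Of the 5 destruction complex genes, log2 fold changes ran from -0.37 (GSK3A, adjusted p = 0.233) to 0.24 (CSNK1A1). The 3 Dishevelled genes ran from -0.28 to -0.17. APC, the scaffold of the complex, varied widely between some repeats, at 10.9 and 0.366 CPM in HN6 NC and 3.87 and 1.34 CPM with siFAT1-1. The HN6 siFAT1-2 repeats were close, at 10.05 and 10.89 CPM. The log2 fold change of APC, 0.10, had a standard error of 0.63.

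Singly, each siRNA gave more calls than both in 1 contrast. With siFAT1-1, 6 of 46 members were DEGs, 5 higher and 1 lower (13.04%, against 5.58% of all genes), and 3 had an adjusted p under 0.05 (6.52%, against 3.25%). With siFAT1-2, 7 were DEGs, 3 higher and 4 lower (15.22%, against 9.06%), and 7 had an adjusted p under 0.05 (15.22%, against 11.8%). Both contrasts use the same NC libraries. Of the DEGs, WNT6 and WNT10B were called with both siRNAs, NKD1, WNT3, WNT9A and WNT11 with siFAT1-1 alone, and DKK1, FZD1, PORCN, WNT4 and WNT7B with siFAT1-2 alone. Here alone means only that the other siRNA missed the thresholds, and the overlap over all genes is not given. FZD1 was also lower with siFAT1-1 (-0.79, adjusted p = 0.230). Between siFAT1-1 and siFAT1-2, FZD1, PORCN and NKD1 were not called (0.44, 0.69 and -0.87, adjusted p = 0.367, 0.204 and 0.445). In the direct contrast of siFAT1-1 with siFAT1-2, 7 members were DEGs (15.22%, against 12.4% of all genes) and 10 had an adjusted p under 0.05 (21.74%, against 17.4%). The shares with siFAT1-2 and between the siRNAs were near those of all genes. The share of DEGs with siFAT1-1 includes NKD1, WNT6 and WNT11, whose values are a description, and its difference from that of all genes was not tested. Of the 10, 6 were ligands, each higher with siFAT1-1. They include WNT11, which reached the level of the filter on low counts in no siFAT1-2 library, so its value is a description.

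**Figure D2:**
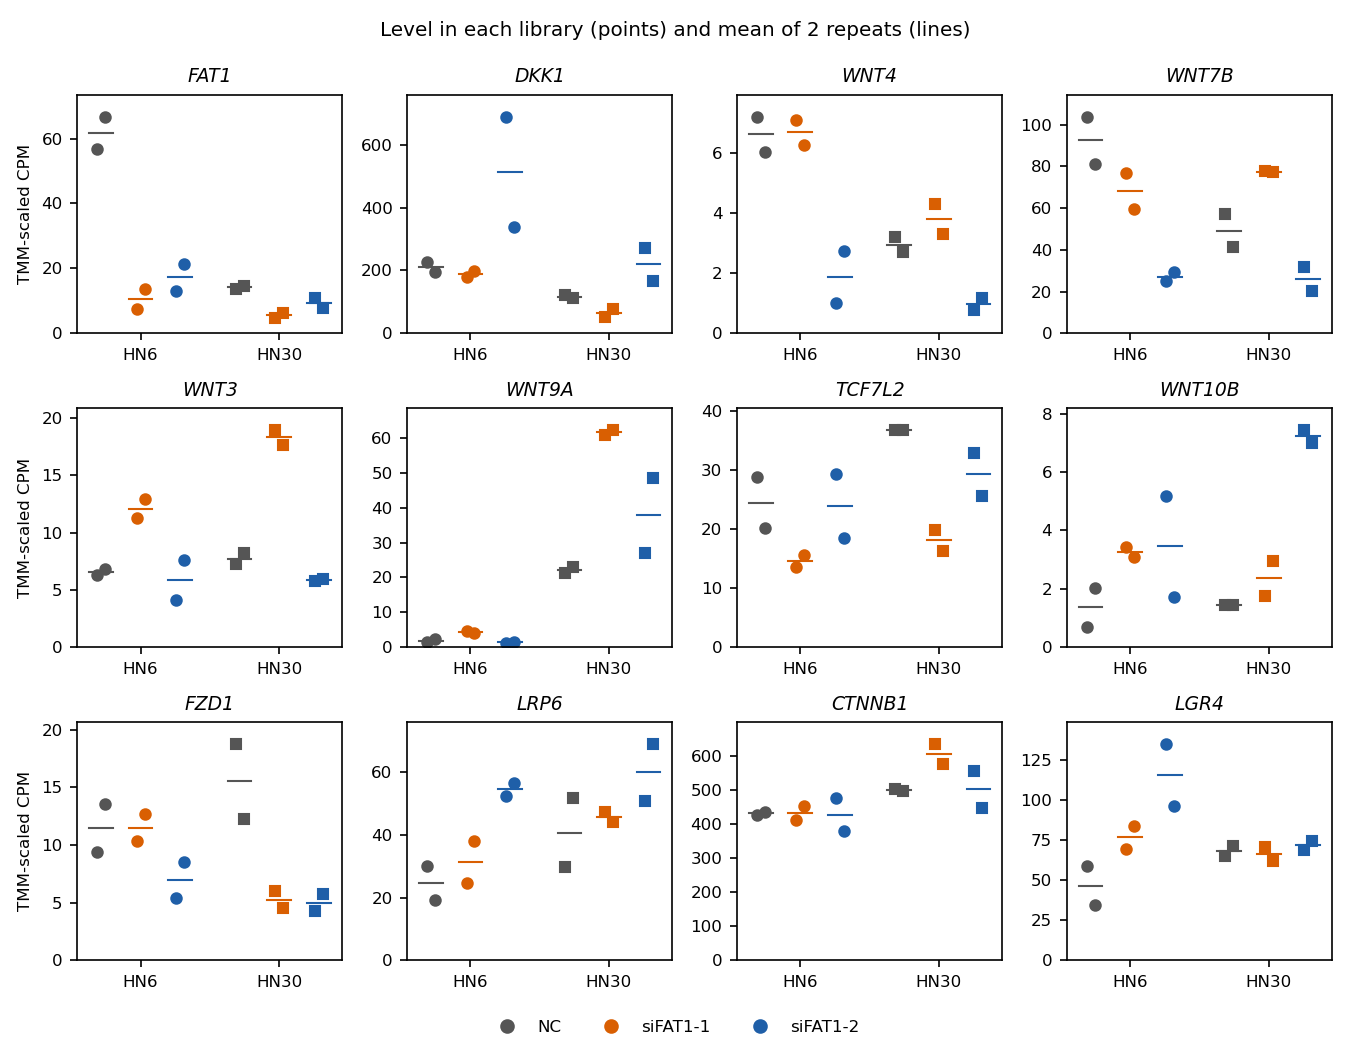
TMM-scaled CPM (vertical axes, from 0) of FAT1 and 11 pathway genes in each library, with circles for HN6 and squares for HN30, colours for NC, siFAT1-1 and siFAT1-2, and lines at the mean of 2 repeats. DKK1 is highest and WNT4 and WNT7B are lowest with siFAT1-2 in both lines, WNT3 and WNT9A are highest with siFAT1-1, and the points of CTNNB1 lie close together.

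DKK1 rose with siFAT1-2 and did not with siFAT1-1. In HN6 its level was 226 and 195 CPM in NC, 178 and 199 CPM with siFAT1-1 and 689 and 339 CPM with siFAT1-2. In HN30 it was 121 and 113 CPM in NC, 53.1 and 77.4 CPM with siFAT1-1 and 272 and 168 CPM with siFAT1-2. All 4 siFAT1-2 libraries lay above the NC and siFAT1-1 libraries of their line. The log2 fold change was 1.09 ± 0.24 with siFAT1-2 (adjusted p = 0.0170) and -0.50 with siFAT1-1, and siFAT1-1 and siFAT1-2 differed by -1.59 ± 0.25 (adjusted p = 0.00229). The call with siFAT1-2 was lost without HN30 siFAT1-2 repeat 1 (adjusted p = 0.0556), and the difference between the siRNAs held without any single library. DKK3, the other secreted inhibitor gene, gave no DEG with either siRNA.

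WNT4 and WNT7B fell with siFAT1-2. WNT4, a ligand mostly linked to beta-catenin-independent signalling, was at 7.21 and 6.03 CPM in HN6 NC, 7.11 and 6.28 CPM with siFAT1-1 and 0.997 and 2.74 CPM with siFAT1-2. In HN30 it was at 3.20 and 2.70 CPM in NC, 4.30 and 3.30 CPM with siFAT1-1 and 0.779 and 1.17 CPM with siFAT1-2. The siFAT1-2 libraries were apart from all others of their line. The log2 fold change was -1.72 ± 0.32 with siFAT1-2 (adjusted p = 0.00782), and the difference between siFAT1-1 and siFAT1-2 was 1.90 ± 0.32 (adjusted p = 0.00340). WNT7B, one of the most abundant ligand genes and typical of squamous epithelia, was at 104 and 81.2 CPM in HN6 NC, 76.8 and 59.8 CPM with siFAT1-1 and 25.2 and 29.2 CPM with siFAT1-2. The HN30 levels were 57.2 and 41.3 CPM in NC, 77.8 and 77.3 CPM with siFAT1-1 and 31.9 and 20.3 CPM with siFAT1-2. With siFAT1-1 the direction thus differed between the lines, whereas with siFAT1-2 every library was below NC. Its log2 fold change was -1.38 ± 0.25 with siFAT1-2 (adjusted p = 0.00762), and the difference between the siRNAs was 1.46 ± 0.25 (adjusted p = 0.00350). These 4 calls held without any single library.

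WNT3 and WNT9A rose with siFAT1-1. WNT3, a canonical ligand, was at 6.32 and 6.82 CPM in HN6 NC, 11.3 and 12.9 CPM with siFAT1-1 and 4.10 and 7.64 CPM with siFAT1-2. In HN30 it was at 7.24 and 8.22 CPM in NC, 19.0 and 17.7 CPM with siFAT1-1 and 5.80 and 5.97 CPM with siFAT1-2. All 4 siFAT1-1 libraries were above the other libraries of their line. The log2 fold change was 1.07 ± 0.23 with siFAT1-1 (adjusted p = 0.0257), and the siRNAs differed by 1.34 ± 0.23 (adjusted p = 0.00362). WNT9A was at 1.30 and 2.28 CPM in HN6 NC, 4.53 and 3.98 CPM with siFAT1-1 and 1.14 and 1.41 CPM with siFAT1-2. The HN30 levels were 21.3 and 23.1 CPM in NC, 61.0 and 62.4 CPM with siFAT1-1 and 27.1 and 48.7 CPM with siFAT1-2. It was high with siFAT1-1 in both lines, and with siFAT1-2 it lay above NC in HN30 only. Its log2 fold change was 1.36 ± 0.30 with siFAT1-1 (adjusted p = 0.0289), and the siRNAs differed by 1.14 ± 0.30 (adjusted p = 0.0224). The call on WNT3 was lost without HN6 NC repeat 1, HN6 siFAT1-1 repeat 2 or any 1 of the HN30 NC and HN30 siFAT1-1 libraries (adjusted p up to 0.114). That on WNT9A was lost without HN6 NC repeat 1 or any 1 of the HN6 siFAT1-1, HN30 NC and HN30 siFAT1-1 libraries (adjusted p up to 0.114).

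These ligand genes lie beside other WNT genes in the genome. In GENCODE 44 (GRCh38), WNT3 and WNT9B on chromosome 17 are 46 bp apart and point away from each other, WNT9A and WNT3A on chromosome 1 are 59.1 kb apart, and WNT10B and WNT1 on chromosome 12 are 6.59 kb apart. These gaps are between the ends of whole gene models. The WNT3 promoter window shown above lies inside its model and ends at position 46818942, whereas WNT9B starts at 46833201. The neighbours had few counts, 0 for WNT9B, 4 for WNT3A and 66 for WNT1, the last all in HN6. In the remaining pair, WNT6 and WNT10A on chromosome 2, which are 6.62 kb apart on the same strand, WNT10A was at 18.7 to 53.9 CPM and WNT6 at 0.0566 to 0.935 CPM.

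WNT10B rose with siFAT1-2. Its log2 fold change was 1.89 ± 0.46 with siFAT1-2 (adjusted p = 0.0236), from 0.683 and 2.03 CPM to 5.18 and 1.72 CPM in HN6 and from 1.44 and 1.44 CPM to 7.44 and 7.02 CPM in HN30. The HN30 groups were far apart, and in HN6 siFAT1-2 repeat 2 lay between the NC repeats. With siFAT1-1, where WNT10B was also a DEG, the log2 fold change was 1.02 ± 0.46 (adjusted p = 0.249). Its difference between siFAT1-1 and siFAT1-2, -0.86 ± 0.45, was not called (adjusted p = 0.202). The call with siFAT1-2 was lost without HN6 siFAT1-2 repeat 1, HN30 siFAT1-2 repeat 1 or either HN30 NC library (adjusted p up to 0.0725). WNT11, of the beta-catenin-independent class, was at 0.311 and 0.428 CPM in HN30 NC, 1.65 and 1.11 CPM with siFAT1-1 and 0.260 and 0.204 CPM with siFAT1-2, and it was at 0 in 4 of the 6 HN6 libraries. Its difference between siFAT1-1 and siFAT1-2 was 2.93 ± 0.64 (adjusted p = 0.0103), and siFAT1-1 against NC gave 2.30 ± 0.60 (adjusted p = 0.0599). WNT11 reached the level of the filter on low counts, 0.307 CPM, in the HN30 NC and HN30 siFAT1-1 libraries and in no siFAT1-2 library, so these values are a description, and so is that of NKD1 with siFAT1-1, which no siFAT1-1 library reached. The other DEGs with siFAT1-1 were WNT6 at 2.11 ± 0.65 (adjusted p = 0.105, from 1.37 without HN30 siFAT1-1 repeat 1 to 2.66 without HN6 NC repeat 1) and NKD1 at -1.69 ± 0.71 (adjusted p = 0.258), and WNT6 with siFAT1-2 was at 1.70 ± 0.65 (adjusted p = 0.107). With siFAT1-1, WNT10B stayed a DEG only without HN6 NC repeat 2 or HN30 siFAT1-1 repeat 1, and NKD1 was no DEG without either HN6 NC, HN30 NC or HN30 siFAT1-1 library. Over all fits with 1 library left out that tested the gene, log2 fold changes ran from 0.79 to 1.39 for WNT10B and from -2.03 to -1.38 for NKD1. With the time as a block neither was a DEG (1.02 and -1.71, adjusted p = 0.274 and 0.266), nor was WNT10B with limma-voom (1.06) or NKD1 with the DESeq2 Wald test (-1.45) or no filter (-1.67). WNT6 with siFAT1-2 was no DEG without HN6 siFAT1-2 repeat 1, HN6 NC repeat 2 or either HN30 NC library. Over all fits with 1 library left out, its log2 fold change ran from 1.43 to 2.29. WNT7A, a close relative of WNT7B, differed between siFAT1-1 and siFAT1-2 by 0.91 ± 0.25 (adjusted p = 0.0282), and WNT5B by 1.16 ± 0.53 (adjusted p = 0.144). WNT5B was no DEG with limma-voom (1.04) or without any 1 of 7 libraries. They were repeat 1 of HN6 siFAT1-1, HN30 NC and HN30 siFAT1-1, repeat 2 of HN6 NC and HN6 siFAT1-2, and both HN30 siFAT1-2 repeats. Over all fits with 1 library left out, the WNT5B difference ran from 0.83 to 1.62.

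The summed level of the ligand genes was highest with siFAT1-1 in both lines. In HN6 it was 51.4 and 48.8 CPM per kb in NC, 70.5 and 54.6 CPM per kb with siFAT1-1 and 37.7 and 30.4 CPM per kb with siFAT1-2. In HN30 it was 58.0 and 36.9 CPM per kb in NC, 78.1 and 78.3 CPM per kb with siFAT1-1 and 39.2 and 41.3 CPM per kb with siFAT1-2. The siFAT1-1 libraries were above NC in both lines, and the siFAT1-2 libraries were below NC in HN6 and between the NC repeats in HN30. Over the 6 libraries of a line, WNT10A and WNT7B made up 32.5% and 32.5% of the sum in HN6 and 34.0% and 23.3% in HN30. The sum is thus no result apart from those of single genes. PORCN, which acylates WNT proteins for secretion, was a DEG with siFAT1-2, with a log2 fold change of -1.09 ± 0.37 (adjusted p = 0.0745). It was at 58.6 and 31.2 CPM in HN6 NC, 41.8 and 23.5 CPM with siFAT1-2, 76.3 and 29.8 CPM in HN30 NC and 17.5 and 13.5 CPM with siFAT1-2. PORCN was lower with siFAT1-2 than in NC at the same time in all 4 pairs, and it lost the call without HN30 NC repeat 1 (-0.68) or either HN30 siFAT1-2 library.

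Of the 13 receptors, 2 had an adjusted p under 0.05 with siFAT1-2 (11.8% of all genes) and 0 with siFAT1-1 (edgeR, 3.25% of all genes), where 1 had an unadjusted P under 0.05. With siFAT1-2, FZD1 fell by 1.23 on the log2 scale (SE 0.33, adjusted p = 0.0350) and LRP6 rose by 0.86 (SE 0.24, adjusted p = 0.0390). The level of LRP6 was 30.0 and 19.1 CPM in HN6 NC, 52.5 and 56.7 CPM with siFAT1-2, 29.7 and 51.7 CPM in HN30 NC and 50.7 and 69.1 CPM with siFAT1-2. The LRP6 groups were apart in HN6 and overlapped in HN30. LRP5 was lower with siFAT1-2 than with siFAT1-1, by 0.49 ± 0.13 (adjusted p = 0.0277). LRP6 kept its call only without HN6 siFAT1-1 repeat 2, HN30 NC repeat 2 or HN30 siFAT1-2 repeat 1, and its adjusted p was up to 0.110. FZD1 lost its call with siFAT1-2 without any 1 of 7 libraries, which were repeat 1 of HN6 siFAT1-1, HN6 siFAT1-2, HN30 NC, HN30 siFAT1-1 and HN30 siFAT1-2 and repeat 2 of HN30 NC and HN30 siFAT1-2 (adjusted p up to 0.104). Summed over the 13 receptor genes, the level in HN6 was 87.4 and 90.8 CPM per kb in NC and 94.7 to 98.8 CPM per kb in KD, and in HN30 it was 144 and 158 CPM per kb in NC and 114 to 130 CPM per kb in KD. The 4 KD libraries lay above NC in HN6 and below NC in HN30. Single genes weigh heavily in these sums, and other receptors moved in both directions. In HN30, FZD6 had a mean of 51.15 CPM per kb in NC, 33.3 with siFAT1-1 and 28.0 with siFAT1-2. In HN6, LGR4 had a mean of 8.86 CPM per kb in NC, 14.6 with siFAT1-1 and 22.0 with siFAT1-2.

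Of the nuclear partners, TCF7L2 fell with siFAT1-1 and BCL9L with siFAT1-2. TCF7L2, the main TCF factor of these cells by level, was at 28.8 and 20.1 CPM in HN6 NC, 13.6 and 15.6 CPM with siFAT1-1 and 29.3 and 18.5 CPM with siFAT1-2. In HN30 it was at 36.7 and 36.7 CPM in NC, 19.8 and 16.3 CPM with siFAT1-1 and 32.9 and 25.6 CPM with siFAT1-2. All 4 siFAT1-1 libraries were the lowest of their line. The log2 fold change was -0.89 ± 0.20 with siFAT1-1 (adjusted p = 0.0329), and the siRNAs differed by -0.70 ± 0.20 (adjusted p = 0.0325). BCL9L, a coactivator that bridges beta-catenin to the transcription machinery, was at 317 and 244 CPM in HN6 NC, 224 and 168 CPM with siFAT1-2, 406 and 323 CPM in HN30 NC and 218 and 227 CPM with siFAT1-2, and its log2 fold change was -0.61 ± 0.16 (adjusted p = 0.0313). TCF7L2 lost its call with siFAT1-1 without HN6 NC repeat 1 or any 1 of the HN6 siFAT1-1, HN30 NC and HN30 siFAT1-1 libraries (adjusted p up to 0.148). BCL9L lost its call without HN6 NC repeat 1, HN6 siFAT1-1 repeat 1, HN6 siFAT1-2 repeat 2, HN30 NC repeat 1 or either HN30 siFAT1-2 library (adjusted p up to 0.0970). With siFAT1-1 BCL9L gave -0.20 ± 0.16 (adjusted p = 0.524), and its difference between siFAT1-1 and siFAT1-2, 0.41 ± 0.16, was not called (adjusted p = 0.0944). CTNNB1 gave 0.14 ± 0.13 with siFAT1-1 and 0.00 ± 0.13 with siFAT1-2 (adjusted p = 0.591 and 0.990), RNF43 -0.29 ± 0.30 and 0.14 ± 0.30 (adjusted p = 0.632 and 0.788), and ZNRF3 -0.41 ± 0.19 and -0.52 ± 0.19 (adjusted p = 0.265 and 0.0947). NKD2 gave -0.62 ± 0.91 and -0.09 ± 0.89 (adjusted p = 0.765 and 0.958), and NKD1 with siFAT1-2 gave -0.83 ± 0.67 (adjusted p = 0.457). DVL3, which relays the signal from Frizzled, was lower with siFAT1-1 than with siFAT1-2 by a log2 fold change of -0.48 ± 0.15 (adjusted p = 0.0450, 0.0533 with the time as a block and 0.0611 with no filter on low counts).

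**Figure D3:**
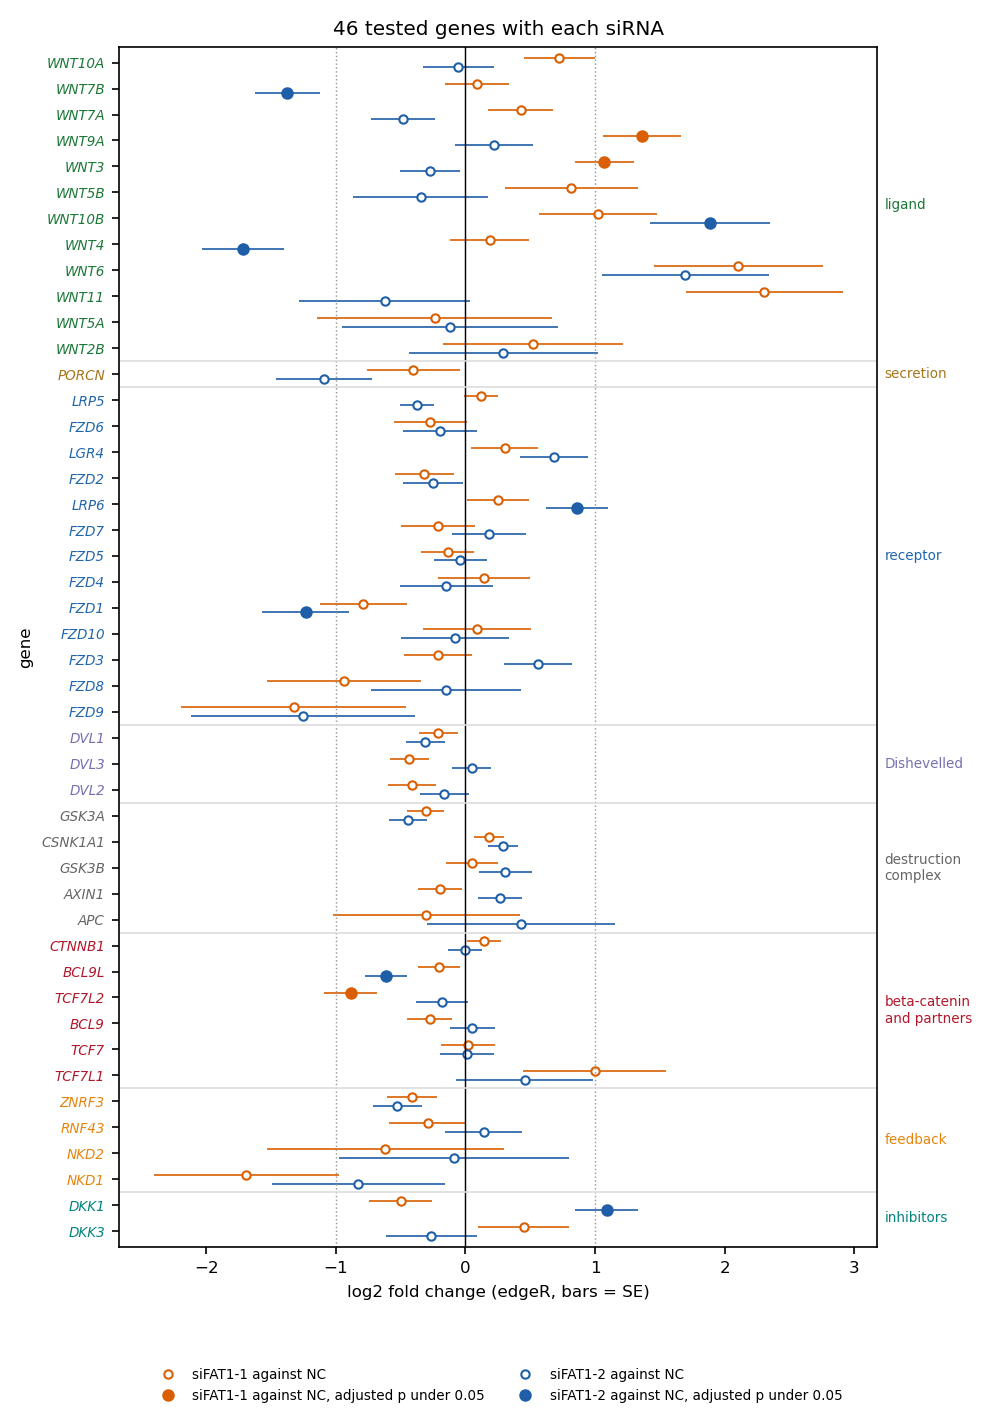
Log2 fold change of siFAT1-1 (orange) and siFAT1-2 (blue) against NC, with SE bars, for the 46 tested genes grouped by role, where filled points have an adjusted p under 0.05 and dotted lines mark a change of 1. The points of siFAT1-1 and siFAT1-2 lie apart for WNT3, WNT4, WNT7B and DKK1, for each of which 1 siRNA is filled and the other is not, and on the same side of 0 for WNT6, WNT10B and FZD1.

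Between siFAT1-1 and siFAT1-2, the calls on WNT3, WNT4, WNT7B and DKK1 held without any single library. WNT11 was not tested without either HN30 siFAT1-1 library, since it then fell under the filter on low counts. The calls on the 5 others were lost when one of several libraries was left out. For WNT9A and TCF7L2 these were HN6 siFAT1-1 repeat 1, HN6 siFAT1-2 repeat 1, HN30 siFAT1-2 repeat 1 and either HN30 siFAT1-1 library, and for WNT9A HN6 siFAT1-2 repeat 2 as well (adjusted p up to 0.0623 for WNT9A and 0.107 for TCF7L2). For WNT7A they were repeat 1 of HN6 siFAT1-1 and of HN6 siFAT1-2, both HN30 siFAT1-1 libraries and HN30 siFAT1-2 repeat 2 (up to 0.0843), for LRP5 the 4 HN6 KD libraries and both HN30 siFAT1-1 libraries (up to 0.0819), and for DVL3 all KD libraries other than HN6 siFAT1-2 repeat 2, and HN6 NC repeat 1 (up to 0.122).

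Markers of squamous and other cell types moved with the siRNA as well. The summed level of the 8 squamous markers, of which KRT5 was the most abundant, was 2413 and 3662 CPM in HN6 NC, 5973 and 5065 CPM with siFAT1-1 and 1900 and 2726 CPM with siFAT1-2. In HN30 it was 2147 and 1983 CPM in NC, 3194 and 3053 CPM with siFAT1-1 and 1181 and 1609 CPM with siFAT1-2. The sums were highest with siFAT1-1 in both lines, and KRT5 differed between siFAT1-1 and siFAT1-2 by 1.98 (log2, adjusted p = 0.0162). TP63, the squamous lineage factor, did not follow the sum in HN30, at 224 and 252 CPM in NC, 125 and 105 CPM with siFAT1-1 and 235 and 275 CPM with siFAT1-2, and over both lines its log2 difference between the siRNAs was -0.56 (adjusted p = 0.213). KRT17 and CDH1 rose with siFAT1-1 (log2 fold changes 1.67 and 0.93, adjusted p = 0.0324 and 0.0213), and SFN and KRT6A fell with siFAT1-2 (-1.35 and -1.82, adjusted p = 0.00330 and 0.0169), while EPCAM rose (0.86, adjusted p = 0.0118). The summed fibroblast markers, mostly COL1A1, were at 74.7 and 74.2 CPM in HN6 NC and 69.2 to 164 CPM in HN6 KD, and at 13 and 21.9 CPM in HN30 NC and 31.9 to 50.1 CPM in HN30 KD, where COL1A1 was a DEG (1.24 ± 0.32, adjusted p = 0.408). The 3 endothelial markers summed to 1.16 and 4.68 CPM in HN6 NC, 6.64 and 7.87 CPM with siFAT1-1 and 0.609 and 1.75 CPM with siFAT1-2, and in HN30 to 0.594 and 0.832 CPM in NC, 3.33 and 2.84 CPM with siFAT1-1 and 0.202 and 0.524 CPM with siFAT1-2. These low sums were highest with siFAT1-1 in both lines, and VWF stood above CDH5 in 6 of the 12 libraries. The 4 leukocyte markers, mostly CD14, summed to 2.12 to 3.92 CPM in HN6, and in HN30 to 8.52 and 9.55 CPM in NC, 15.0 and 12.2 CPM with siFAT1-1 and 4.59 and 7.95 CPM with siFAT1-2. Between siFAT1-1 and siFAT1-2, CDH5, VWF, PDGFRB and CD14 were higher with siFAT1-1, by 3.66, 2.0, 1.1 and 0.85 on the log2 scale (adjusted p = 0.0177, 0.00950, 0.0388 and 0.0428), and LUM was higher with siFAT1-2 (-3.91, adjusted p = 0.0215). The part of these markers in the results on WNT and DKK1 genes was not tested.

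A further 94 pathway genes, grouped into receptor level and secreted regulators, cytoplasmic and nuclear regulators, reported targets, planar polarity and cadherin-bound catenin partners, were read as background to the 55; 76 of them were tested. In KD against NC, 2 were DEGs, LGR6 higher (1.19 ± 0.54, adjusted p = 0.335) and HIPK2 lower (-1.06 ± 0.27, adjusted p = 0.103), where 3.07% of all genes were, and 16 had an unadjusted P under 0.05 (14.5% of all genes). With siFAT1-1, 3 were DEGs (5.58% of all genes) and 3 had an adjusted p under 0.05 (3.25%), CDH1 (E-cadherin) higher and TLE1, a TCF corepressor, and CSNK1G2 lower (log2 fold changes 0.93 ± 0.19, -0.86 ± 0.18 and -0.58 ± 0.14, adjusted p = 0.0213, 0.0233 and 0.0490). With siFAT1-2, 8 were DEGs (9.06% of all genes) and 10 had an adjusted p under 0.05 (11.8%), 3 higher and 7 lower. Of the 18 reported targets, CCND1, FOSL1 and EPHB2 fell with siFAT1-2, by 1.40, 1.27 and 0.62 on the log2 scale (adjusted p = 0.00683, 0.00900 and 0.0183). PROX1, a homeobox factor, was a DEG in the other direction (2.12 ± 0.76, adjusted p = 0.0907), and it differed between siFAT1-1 and siFAT1-2 by -2.98 ± 0.81 (adjusted p = 0.0277). CCND1 encodes cyclin D1 and FOSL1 an AP-1 subunit, and both also have many inputs outside the Wnt pathway. The median log2 fold change of the 18 was -0.30 with siFAT1-2 and -0.16 with siFAT1-1, against 0.00 for all genes in both. Of the planar polarity list, CELSR1 fell with siFAT1-2 by 1.08 (adjusted p = 0.00868), and DAAM1, a formin that binds Dishevelled, was a DEG that was higher (1.22 ± 0.44, adjusted p = 0.0885). RYK, a WNT receptor of the receptor-level list, fell by 0.72 (adjusted p = 0.0232).

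Within each line the design had 2 NC and 4 KD libraries. In HN6, 1 of 42 tested members was a DEG (3.08% of all genes), LGR4, a receptor for R-spondins, which strengthen Wnt signals. LGR4 was at 58.7 and 34.4 CPM in NC, 69.5 and 84.0 CPM with siFAT1-1 and 135 and 96.2 CPM with siFAT1-2, a log2 fold change of 1.08 ± 0.37 (adjusted p = 0.814). Every HN6 KD library was above both NC libraries. LGR4 was no DEG without HN6 NC repeat 2 (0.73) or without HN6 siFAT1-2 repeat 1. In HN30, 5 of 45 were DEGs (4.0% of all genes). FZD1 was lower, with a log2 fold change of -1.60 ± 0.30 (adjusted p = 0.368), and it stayed a DEG without any single HN30 library. The 4 that were higher are ligand genes, WNT9A at 1.16 ± 0.36, WNT10B at 1.73 ± 0.67, WNT6 at 2.54 ± 1.05 and WNT16 at 3.37 ± 1.28 (adjusted p from 0.442 to 0.519). WNT6 and WNT16, with 2 and 3 counts each in the NC libraries, passed the filter on low counts only through KD libraries, so their values are a description. WNT16 was at 0.0566 and 0.0756 CPM in NC, 0.224 and 0.123 CPM with siFAT1-1 and 1.67 and 0.844 CPM with siFAT1-2. Each of these 4 was no DEG without either HN30 NC library, and WNT10B also without either HN30 siFAT1-2 library. Over all fits with 1 HN30 library left out that tested the gene, the log2 fold change of WNT9A ran from 1.04 to 1.36. That of WNT10B ran from 1.44 to 2.02, of WNT6 from 2.38 to 2.82 and of WNT16 from 3.21 to 3.73. With the time as a block, WNT6 was no DEG (2.26, adjusted p = 0.635), nor with no filter on low counts (2.54), and limma-voom ended the calls on WNT6, WNT10B and WNT16 (2.04, 1.53 and 2.61).

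The test of the difference between the lines called 3 of 48 members at the DEG thresholds, where 1.87% of all genes were called. They were FZD1 at 1.28 ± 0.51, FZD6 at 1.08 ± 0.40 and LGR4 at 1.04 ± 0.40, each with a more positive change in HN6 (adjusted p = 1.00 for each). All 3 are receptors. FAT1 itself also passed the DEG thresholds in this test, with a larger fall in HN6 (-1.21 ± 0.56, adjusted p = 1.00). This call was lost with DESeq2 size factors and without any single library other than HN6 siFAT1-2 repeat 2 or HN30 siFAT1-1 repeat 1. Over all 12 fits with 1 library left out, the FAT1 difference ran from -1.50 to -0.98. Its part in the receptor differences was not tested. FZD6 was at 160 and 222 CPM in HN30 NC and 90.6 to 126 CPM in HN30 KD, and at 65.3 and 35.1 CPM in HN6 NC and 51.8 to 79.7 CPM in HN6 KD. The HN30 groups were apart and the HN6 groups overlapped. Leaving out HN6 NC repeat 2 lowered the difference to 0.68 for FZD6 and 0.68 for LGR4 and ended both calls, and leaving out HN30 NC repeat 1 lowered that of FZD1 to 0.94 and ended it. The calls were also lost without HN6 NC repeat 1 or HN6 siFAT1-1 repeat 2 for FZD1, without HN6 siFAT1-2 repeat 2, HN30 siFAT1-2 repeat 1 or HN30 NC repeat 2 for FZD6, and without HN6 siFAT1-2 repeat 1, HN30 NC repeat 2 or HN30 siFAT1-1 repeat 2 for LGR4.

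HN6 and HN30 were also compared with each other over all 12 libraries. Of the 46 members, 18 differed between HN6 and HN30 by a log2 fold change beyond 1 with an adjusted p under 0.05 (39.13%), 9 higher in each line, where 31.0% of all genes did. For 6 of the 18 (FZD9, FZD10, NKD1, NKD2, WNT5A and WNT11) no library of the lower line reached the level of the filter on low counts, so they passed it through the line where they are high, and their values are a description. With the 4 NC libraries alone, 8 of 43 members differed in this way, where 11.4% of all genes did, and APC, DKK1, DVL3, FZD3, FZD4, WNT2B, WNT5A and WNT11 were among those that did not.

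Of the 13 receptors, 2 were called higher in HN6 and 4 in HN30 (31.0% of all genes in either direction), FZD9 and FZD10 included, which are a description. FZD10 was present in HN6 at 5.69 to 9.36 CPM (median 7.10) and had no count in the 6 HN30 libraries, so it was at least 514-fold higher in HN6, against 3 counts over those libraries. FZD7 was at 20.8 to 36.9 CPM in HN6 and 3.13 to 7.21 CPM in HN30 (log2 fold change 2.64 ± 0.25, adjusted p = 3.34e-06). FZD6, the most abundant Frizzled gene of HN30, was at 90.6 to 222 CPM there and at 35.1 to 79.7 CPM in HN6. FZD3, FZD4 and FZD9 were also higher in HN30. Per kb, FZD2 and FZD6 led the Frizzled genes in HN6, at 16.4 and 15.9 CPM per kb, and their order does not hold across the 6 libraries, whereas in HN30 FZD6 at 37.5 CPM per kb stood above FZD2 at 9.83 CPM per kb.

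**Figure D4:**
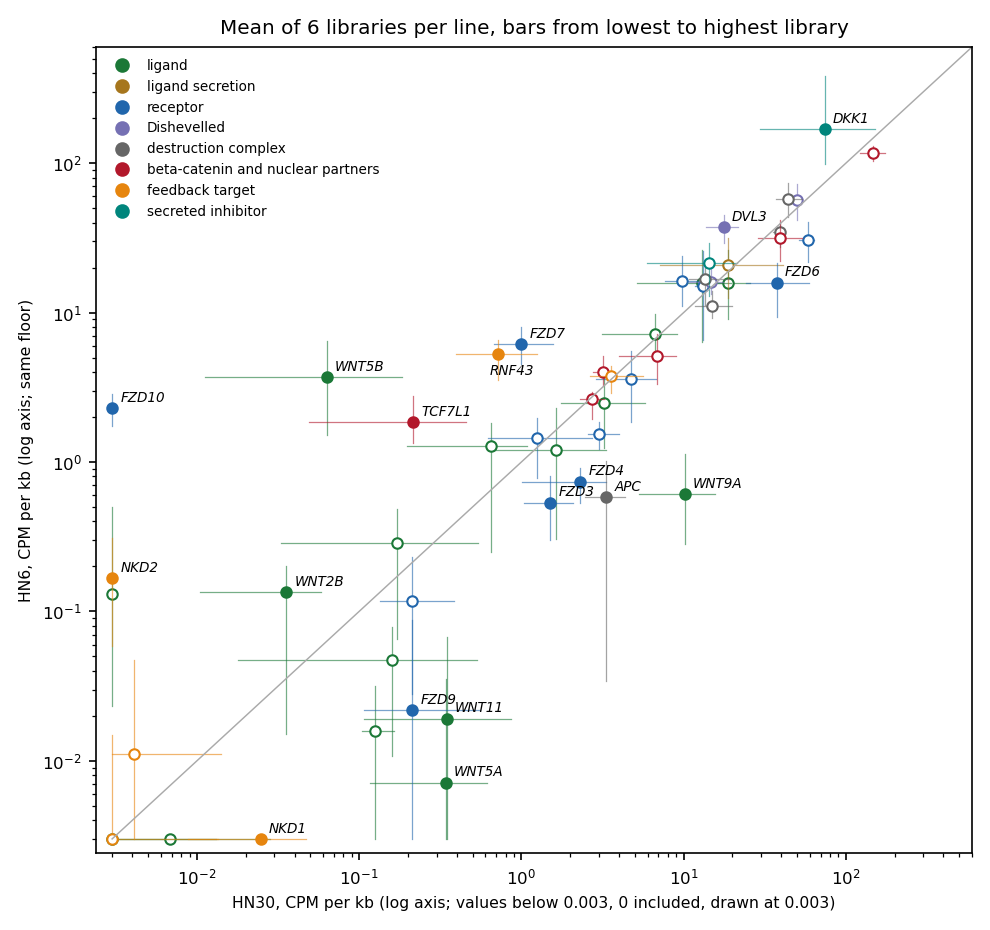
Mean CPM per kb over 6 libraries in HN30 (horizontal, log axis) and HN6 (vertical, log axis), with bars from the lowest to the highest library, for each gene with a count, coloured by role and filled and named where the lines differed by a log2 fold change beyond 1 with an adjusted p under 0.05. FZD10 and NKD2 lie on the left edge (0 in HN30), NKD1 on the bottom edge (0 in HN6), and WNT5B and WNT9A lie far from the diagonal on opposite sides.

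Several ligand genes differed between the lines, and WNT5A and WNT5B were split between them. WNT5B was at 3.37 to 14.5 CPM in HN6 (median 7.62) and 0.0252 to 0.412 CPM in HN30, with a log2 fold change of 5.98 ± 0.48 (adjusted p = 1.01e-06). WNT5A, its paralogue and the best known beta-catenin-independent ligand, was at 0.680 to 3.61 CPM in HN30 (median 1.97) and had 8 counts in HN6, where 4 libraries were at 0 and NC repeat 1 held 6 of them, with a log2 fold change of -5.57 ± 0.83 (adjusted p = 0.000138). It was -7.18 without HN6 NC repeat 1 and -3.94 in the 4 NC libraries alone (adjusted p = 0.118). The ranges of each paralogue did not overlap between the lines. WNT9A was at 21.3 to 62.4 CPM in HN30 and 1.14 to 4.53 CPM in HN6 (log2 fold change -4.11 ± 0.27, adjusted p = 2.08e-07). WNT11 was also higher in HN30 (-4.32 ± 0.56, adjusted p = 4.75e-05, and -6.72 in the 4 NC libraries alone, adjusted p = 0.0514). WNT2B was higher in HN6 (1.86 ± 0.60, adjusted p = 0.0181), a call that was lost without HN30 siFAT1-2 repeat 1 and in the 4 NC libraries alone (0.49, adjusted p = 0.761). WNT1, not tested, had 66 counts in HN6, 44 of them in siFAT1-2 repeat 1, and 0 in HN30.

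The feedback targets also differed by line. RNF43 was at 16.0 to 29.5 CPM in HN6 and 1.80 to 5.68 CPM in HN30 (log2 fold change 2.94 ± 0.26, adjusted p = 2.17e-06), while ZNRF3 gave 0.12 ± 0.16 (adjusted p = 0.525). NKD1 was at least 30.9-fold higher in HN30 and NKD2 at least 25.5-fold higher in HN6, each against 3 counts over the 6 libraries of the other line. TCF7L1, a TCF factor that mostly represses, was at 3.98 to 8.20 CPM in HN6 and 0.146 to 1.36 CPM in HN30 (3.34 ± 0.48, adjusted p = 9.88e-05). DKK1 and DVL3 were higher in HN6, by 1.20 and 1.08 on the log2 scale. APC was at 26.3 to 46.5 CPM in HN30 and 0.366 to 10.9 CPM in HN6 (-2.71 ± 0.64, adjusted p = 0.00338, and -3.38 without HN6 NC repeat 1), without overlap despite its spread in HN6. CTNNB1 differed little, with a log2 fold change of -0.31 ± 0.11 (adjusted p = 0.0271). Of the 18 reported targets outside the 55 genes, 10 were higher and 2 lower in HN6 with an adjusted p under 0.05, where 56.9% of all genes passed in either direction, and their median log2 fold change was 1.48, against 0.00 for all genes.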

How the data were processed

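Poly(A) RNA from HN6 and HN30 cells was sequenced in 12 libraries. Per the labels and the study's methods, the authors discarded duplicates and reads of low quality, aligned to hg38 and deposited whole-number counts per gene symbol, which are not normalized. The submitters' processing notes name HISAT2 and featureCounts, while versions, annotation and strand setting are not given in the sources used here. The knockdown groups carry short-hairpin style names in some labels and are described as siRNA, and are named here as siRNA.

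Counts were tested with edgeR 4.0.16 (quasi-likelihood, TMM, filterByExpr with a minimum count of 10, cell line as a covariate) in R 4.3.3, fitted on all genes, of which 13887 passed the filter in the pooled contrast, and adjusted by Benjamini-Hochberg. The scripts were tested on simulated data. Log2 fold changes are given with the standard error, which was derived from the quasi-likelihood F statistic. CPM was scaled by TMM and divided, where stated, by the length of the Ensembl canonical transcript of GENCODE 44 (GRCh38). Alternatives were a replicate block, DESeq2 1.42.0 (size factors or its Wald test), limma-voom 3.58.1, other filters, no cell line term, and leaving out each library. Promoters were searched in Python 3.11.15. Depth was 26430049 to 47639010 counts per library, with a median of 32561793, and floors cover counting error only.

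The labels mark the repeat number as a time, so it was taken to pair libraries. Within a line, the correlation of same-numbered deviations ran from -0.0225 to 0.439 over 6 pairs of conditions. The study's methods describe the repeats as biological. The genes and lists were chosen with earlier results of these data known. Log2 fold changes, standard errors and adjusted p-values were given for FAT1, for CTNNB1 and the tested feedback targets in KD and each siRNA against NC, and for every DEG or adjusted call among the 55 genes in a comparison with NC, between siRNAs or in the interaction and the 4 calls of largest change in each direction between the lines, except that a gene without a count in 1 line is given as a lower bound. Genes singled out beyond this rule were chosen after their values were seen.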

Additional observations from a re-analysis of the deposited data

Results flagged for a closer look

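The effect of KD differed between HN6 and HN30 for 3 receptor genes in a test of the difference itself, at an unadjusted P under 0.05 and a difference beyond 1 (1.87% of all genes). The difference, as the log2 fold change in HN6 minus that in HN30, was 1.04 ± 0.40 for LGR4, 1.28 ± 0.51 for FZD1 and 1.08 ± 0.40 for FZD6. None passed the adjustment over all genes (edgeR adjusted p = 1.00 for each). LGR4 was higher than both NC libraries in all 4 HN6 KD libraries, and in HN30 its level was 65.3 and 71.4 CPM in NC and 62.0 to 74.7 CPM in KD. FZD1 and FZD6 were lower than both NC libraries in all 4 HN30 KD libraries. Leaving out HN6 NC repeat 2 lowered the difference to 0.68 for LGR4 and for FZD6, and leaving out HN30 NC repeat 1 lowered it to 0.94 for FZD1. Each of these omissions ended the call, as did others given above. FAT1 itself differed in the same test, by -1.21 ± 0.56 (adjusted p = 1.00), with the larger fall in HN6, a call that held only without HN6 siFAT1-2 repeat 2 or HN30 siFAT1-1 repeat 1 when 1 library was left out, and the part of this in the receptor differences was not tested.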

How the results depend on the processing

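All 66 named results kept their direction under every alternative run, and 24 of the 62 that were called kept the call in every one in which the gene was tested. Of 75 counts of calls under alternatives, 65 were within 1.5 times the main count, as were 105 of 132 counts with a library left out. In KD against NC, the DESeq2 Wald test gave 3 members with an adjusted p under 0.05 (main 0), and no filter gave 5 DEGs (main 3). With siFAT1-1 the Wald test gave 5 adjusted calls (main 3). Within HN6, DEGs numbered 2 with the replicate block, 3 with the Wald test, 4 with limma-voom and 2 with no filter (main 1). Within HN30 they numbered 2 with limma-voom and 3 with at least 1 CPM in 2 libraries (main 5). Between the lines, 8 were called in the 4 NC libraries alone (main 18). The block changed no call beyond those given above with the time as a block and the count within HN6. The causes were not tested.

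Leaving out one library in turn gave 2 to 5 DEGs in KD against NC, 3 to 6 with siFAT1-1, 4 to 7 with siFAT1-2, 0 to 4 within HN6, 1 to 6 within HN30 and 1 to 4 in the interaction. Adjusted calls numbered 0 to 3 with siFAT1-1, 3 to 7 with siFAT1-2 and 4 to 13 between the siRNAs. Without HN6 NC repeat 1 or repeat 2, respectively, there were 3 and 5 DEGs in KD against NC, 0 and 3 adjusted calls with siFAT1-1, 5 and 7 with siFAT1-2, and 4 and 1 DEGs within HN6. Outside the interaction, the filter on low counts left AXIN2, LEF1 and 7 other genes untested in the fits over all 12 libraries. Of these, WNT8B and WNT16 were tested in the interaction.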
